A study of Mus musculus with 17 samples.

Results

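The 10 genes described here are the 2 that the cell sort rested on, Prom1 and Gfap, and 8 classic genes of radial glia: Fabp7, Slc1a3, Vim, Nes, Dbi, Ednrb, Mfge8 and Hopx. They were taken as every probe set whose only gene symbol is one of these, which gave 27 of 34945 probe sets with 1 symbol and 10 of 18193 genes. The study used fluorescence sorting to take cells out of the developing cortex of hGFAP-eGFP mice, whose green fluorescent protein (GFP) is driven by a promoter of the human GFAP gene, and measured total RNA on 17 expression arrays, 1 for each sample. Selection was by GFP brightness and, in 3 of the 5 groups, also by Prominin on the surface, the protein made from Prom1. At embryonic day 14 (E14), Prominin-positive cells were either GFP-high (n = 4) or GFP-low (n = 3), and both groups are called gated. Other E14 samples, again GFP-high (n = 3) or GFP-low (n = 3), have no Prominin gate in their labels and are called ungated. At embryonic day 18 (E18), GFP-positive cells were gated on Prominin as well (n = 4), with no division into GFP-high and GFP-low in the labels. All groups carry the transgene, so GFP reports the activity of a human promoter fragment and not of the mouse Gfap gene. No label names the litters behind the samples, so a p-value here reflects the spread among these arrays, and part of that spread may be technical.

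Radial glia are the cells from which the cortex is built. They line the ventricle, span the wall with a long fibre, divide at the apical surface and give rise to neurons, basal progenitors and later to astrocytes. They are recognised by a set of proteins that they share with astrocytes or with the earlier neuroepithelium: the intermediate filaments vimentin and nestin, the glutamate transporter GLAST, the lipid carrier BLBP and, at the apical membrane, Prominin. In the mouse, unlike in primates, radial glia hold little GFAP before birth.

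The promoter windows of 4 members are shown because the sort rested on Prom1 and GFAP, and because Fabp7 and Vim moved in opposite directions between E14 and E18. Each runs from 250 bases before to 50 bases after a start of the gene in RefSeq, 5′ to 3′ on the gene's strand, in build GRCm38.p6. Capitals mark matches, on either strand, to 6 short motifs searched. They were the CCAAT box (CCAAT), the TATA box (written as TATAAA), a core site of the Notch effector RBPJ (written as GTGGGAA), an octamer-like site of POU factors (written as ATTTGNAT), a STAT-like site (written as TTCNNNGAA) and a core site of Sox factors (written as ACAAAG).
Prom1 (chr5:44101687-44101986, minus strand): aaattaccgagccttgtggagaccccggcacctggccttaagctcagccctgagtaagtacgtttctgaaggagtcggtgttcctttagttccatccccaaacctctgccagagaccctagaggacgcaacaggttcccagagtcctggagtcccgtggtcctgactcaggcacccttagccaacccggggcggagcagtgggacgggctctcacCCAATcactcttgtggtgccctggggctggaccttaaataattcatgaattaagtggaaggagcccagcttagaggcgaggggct
Gfap (chr11:102897151-102897450, minus strand): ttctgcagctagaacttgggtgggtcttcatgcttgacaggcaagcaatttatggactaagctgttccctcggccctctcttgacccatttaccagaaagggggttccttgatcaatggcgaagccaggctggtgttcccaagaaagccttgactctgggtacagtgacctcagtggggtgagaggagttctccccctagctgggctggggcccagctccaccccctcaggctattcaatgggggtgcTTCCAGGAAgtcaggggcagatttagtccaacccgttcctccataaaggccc
Fabp7 (chr10:57784673-57784972, plus strand): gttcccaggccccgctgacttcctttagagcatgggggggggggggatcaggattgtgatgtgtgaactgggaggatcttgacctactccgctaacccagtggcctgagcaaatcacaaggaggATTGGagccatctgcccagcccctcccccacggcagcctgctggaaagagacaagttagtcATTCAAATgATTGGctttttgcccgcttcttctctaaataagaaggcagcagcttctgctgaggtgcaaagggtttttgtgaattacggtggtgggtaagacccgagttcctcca
Vim (chr2:13574061-13574360, plus strand): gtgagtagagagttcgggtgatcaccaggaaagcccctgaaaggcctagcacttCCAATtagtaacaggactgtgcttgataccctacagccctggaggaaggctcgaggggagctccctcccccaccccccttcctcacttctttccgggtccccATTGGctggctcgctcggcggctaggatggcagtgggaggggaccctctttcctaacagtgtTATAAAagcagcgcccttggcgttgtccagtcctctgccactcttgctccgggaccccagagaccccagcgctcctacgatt
The Prom1 window shown held 1 CCAAT match and the Gfap window 1 STAT-like match. Another Prom1 window, at a different start, is not shown and held no match. The Fabp7 window held 2 CCAAT matches, both on the minus strand, and 1 octamer-like match that lies next to one of them without overlapping it. The Vim window held 2 CCAAT matches and 1 TATAAA match. All 10 members matched the RefSeq table, with 13 windows between them. CCAAT was found in 9 of these 13 windows, which belong to 7 genes, against 37.4% of all 32851 windows of this length. The 2 Dbi windows overlap, and the same CCAAT match is counted in both. The letters TATAAA were found in 2 of the 13 windows (Slc1a3 and Vim) and in 13.6% of all windows. In Vim they began at −32 on the gene's strand, and in Slc1a3 at −161 on the opposite strand. The STAT-like site was found in 2 windows (Gfap and Slc1a3) against 8.3%. The RBPJ core was found in 1 window (Mfge8) against 6.38%, the octamer-like site in 1 (Fabp7) against 4.36% and the Sox core in 0 against 18.7%. A match describes the letters of the window and is no evidence of binding.

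Levels are log2 of the deposited intensity plus 16, after the arrays were brought to a common distribution. Each gene is read from its probe set with the highest mean, and levels of different genes are not comparable because their probes differ. The median level of all genes was 6.30. A background reference of 5.53 was taken from 39 olfactory receptor genes and 14 genes of other organs, as the 95th percentile of their group means. The number of arrays limits the precision of every value. In bulk RNA, fewer cells of a type and less RNA per cell cannot be told apart.

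Control signals on the gated E14 arrays lay outside the range of the ungated ones. The 3′ Gapdh control exceeded the 5′ one by 0.54 to 2.29 on the log2 scale in gated E14 cells, with values from −0.25 to 0.18 in ungated and −0.21 to 1.00 in E18 cells. An 18S ribosomal RNA control read 3152 to 6896 on the gated E14 arrays, 300 to 1377 on the ungated and 714 to 2673 on the E18 arrays. All gated arrays and 1 of 6 ungated arrays, GFP-high replicate 1, were labelled with a MessageAmp kit, and the other 5 ungated arrays with another kit. The part of these differences in the comparisons between gated and ungated cells was not tested, and in GFP-low cells the kit and the gate cannot be told apart.

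**Figure D1:**
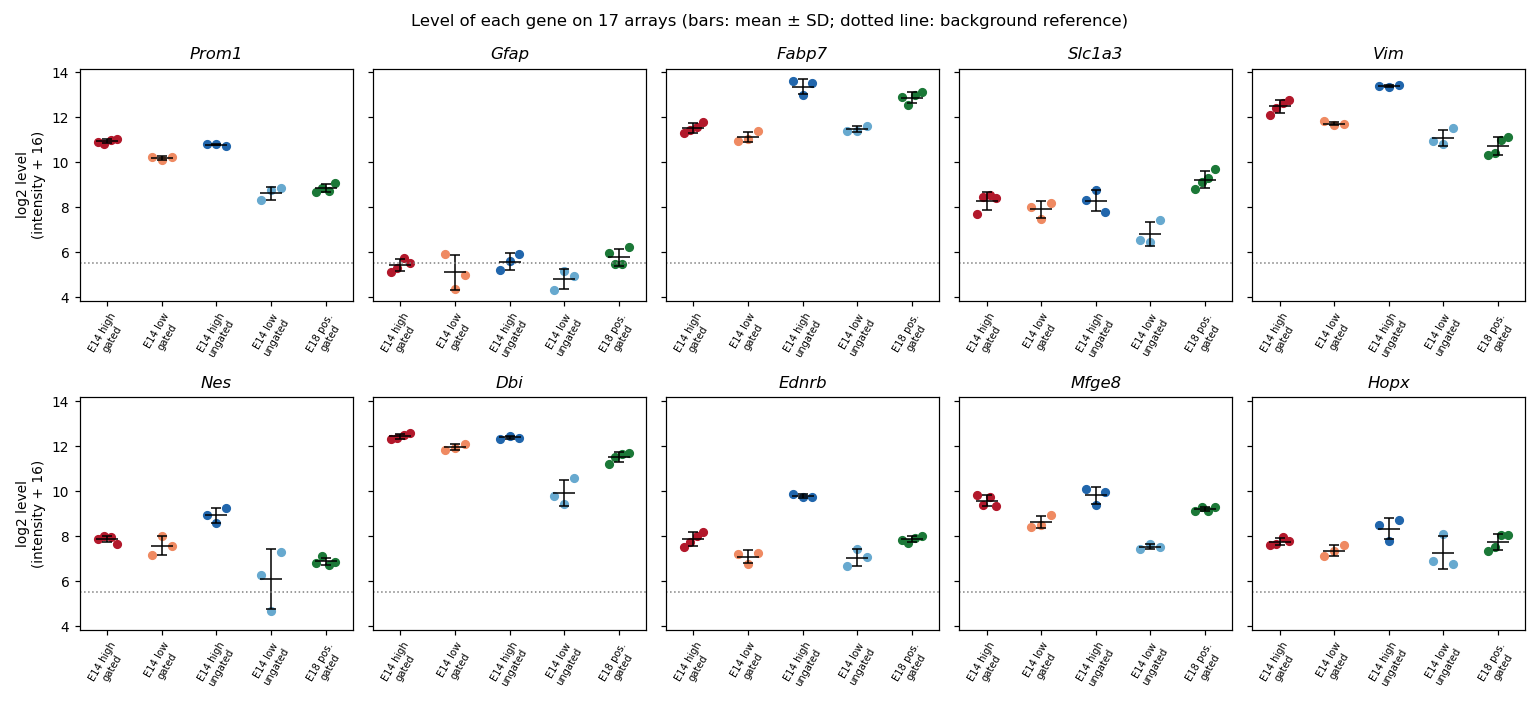
The log2 level (intensity plus 16) of each of the 10 genes on 17 arrays, by group, with each point 1 array, bars for mean ± SD and a dotted line at the background reference of 5.53. Vim and Dbi lie far above the line in every group, Gfap lies at it, and the order of the groups differs between genes.

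Prom1 encodes Prominin-1, a membrane protein of apical protrusions that binds cholesterol. In gated E14 GFP-high cells its level was 10.91, 10.81, 10.97 and 11.02, and in gated GFP-low cells 10.25, 10.10 and 10.22. In ungated GFP-high cells it was 10.82, 10.80 and 10.74, close to gated GFP-high cells, and in ungated GFP-low cells it was 8.30, 8.75 and 8.84. At E18 it was 8.69, 8.84, 8.74 and 9.08, although these cells were also sorted as Prominin-positive. The 2 GFP-high groups stood at the top and overlapped, gated GFP-low cells lay below both with no overlap, and E18 and ungated GFP-low cells overlapped at the bottom. In a fit on all 17 arrays the step from ungated GFP-high to gated GFP-low cells was 0.60 ± 0.16 (standard error; adjusted p = 0.0127, where 25.5% of all genes were called) and that from gated GFP-low to E18 cells 1.35 ± 0.15 (adjusted p = 2.24e-05, where 16.9% were called). Neighbouring groups at the top and at the bottom did not differ beyond their spread (adjusted p = 0.585 and 0.390).

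Gfap encodes the intermediate filament protein of astrocytes, whose human promoter drives the GFP. Its deposited intensities were 15.7 to 34.0 in gated GFP-high, 4.14 to 43.3 in gated GFP-low, 20.8 to 42.5 in ungated GFP-high, 3.07 to 23.1 in ungated GFP-low and 29.8 to 73.8 in E18 cells. The group means passed the background reference in 2 of 5 groups, ungated GFP-high cells (5.59 ± 0.36, SD, n = 3) and E18 cells (5.77 ± 0.37, SD, n = 4). The other 2 Gfap probe sets passed it in 0 groups. Ranges of neighbouring groups overlapped throughout, and 0 of the 7 comparisons tested by limma called Gfap. Its unadjusted p was under 0.05 in 1 of them, the ungated GFP contrast (0.0351), where GFP-high and GFP-low arrays did not overlap. The endogenous transcript thus lay near background on arrays sorted by a GFAP promoter.

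Fabp7 encodes BLBP, a fatty acid binding protein of radial glia. Its level was 11.28, 11.44, 11.55 and 11.80 in gated GFP-high cells and 10.96, 11.03 and 11.38 in gated GFP-low cells, which overlap. In ungated GFP-high cells it was 13.59, 12.97 and 13.51, and in ungated GFP-low cells 11.40, 11.40 and 11.61. At E18 it was 12.88, 12.53, 12.98 and 13.10. Ungated GFP-high and E18 cells overlapped at the top, and every array of both lay above every array of the other 3 groups. The step from E18 to gated GFP-high cells was 1.35 ± 0.18 on all 17 arrays (adjusted p = 3e-05, where 25.8% of all genes were called), and no other neighbours were called.

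Dbi encodes the acyl-CoA binding protein, also known as diazepam binding inhibitor. It was 12.31, 12.35, 12.50 and 12.57 in gated GFP-high cells, 12.31, 12.47 and 12.38 in ungated GFP-high cells and 11.84, 11.90 and 12.10 in gated GFP-low cells. At E18 it was 11.19, 11.51, 11.63 and 11.69, and in ungated GFP-low cells 9.77, 9.44 and 10.58. Ungated GFP-low cells stood alone at the bottom, 1.58 ± 0.21 below E18 cells (adjusted p = 8.22e-05, where 20.1% of all genes were called).

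Slc1a3 encodes the glutamate transporter GLAST. Its level was 7.68, 8.46, 8.55 and 8.42 in gated GFP-high, 8.02, 7.49 and 8.19 in gated GFP-low and 8.32, 8.77 and 7.80 in ungated GFP-high cells, 3 groups that overlap. E18 cells were highest, at 8.79, 9.10, 9.31 and 9.71, and ungated GFP-low cells lowest, at 6.53, 6.45 and 7.43. The step from E18 to ungated GFP-high cells was 0.93 ± 0.30 (adjusted p = 0.0274, where 30.6% of all genes were called) and that from gated to ungated GFP-low cells 1.10 ± 0.33 (adjusted p = 0.026, where 19.2% were called). These values come from probe set 1443749_x_at, and other Slc1a3 probe sets gave another order, as described with the probe sets.

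Vim encodes vimentin, the main intermediate filament of radial glia. It was 12.11, 12.42, 12.65 and 12.77 in gated GFP-high cells and 11.82, 11.66 and 11.68 in gated GFP-low cells. Ungated GFP-high cells were highest, at 13.37, 13.36 and 13.42, and ungated GFP-low cells had 10.94, 10.82 and 11.50. At E18 it was lowest, at 10.34, 10.43, 10.98 and 11.14. The first 4 groups in order, ungated GFP-high, gated GFP-high, gated GFP-low and ungated GFP-low, did not overlap with each other, while ungated GFP-low and E18 cells did. Of the steps between neighbours, only that from ungated to gated GFP-high cells was called (0.89 ± 0.22, adjusted p = 0.00789, where 20.7% of all genes were called).

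Nes encodes nestin, an intermediate filament protein of neural progenitors. It was 7.87, 8.00, 7.94 and 7.66 in gated GFP-high, 7.15, 8.02 and 7.56 in gated GFP-low and 8.94, 8.57 and 9.24 in ungated GFP-high cells. Ungated GFP-low cells varied most, at 6.28, 4.66 and 7.30, with replicate 2 at a deposited intensity of 8.63. At E18 it was 6.81, 7.10, 6.72 and 6.86, below every gated E14 array. None of the neighbouring groups in the order of Nes was called.

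Ednrb encodes the endothelin receptor type B. Its level was 7.50, 7.73, 8.02 and 8.20 in gated GFP-high and 7.22, 6.77 and 7.27 in gated GFP-low cells. Ungated GFP-high cells stood apart at 9.89, 9.75 and 9.72, while ungated GFP-low cells had 6.65, 7.42 and 7.06. E18 cells, at 7.84, 7.69, 7.90 and 8.02, lay within the range of gated GFP-high cells. On all 17 arrays the step from ungated to gated GFP-high cells was 1.93 ± 0.21 (adjusted p = 1.07e-05) and that from E18 to gated GFP-low cells 0.77 ± 0.21 (adjusted p = 0.0150).

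Mfge8 encodes a secreted glycoprotein that binds phosphatidylserine and integrins. It was 9.84, 9.39, 9.73 and 9.34 in gated GFP-high and 10.10, 9.37 and 9.95 in ungated GFP-high cells, which overlap. Gated GFP-low cells had 8.41, 8.51 and 8.93 and ungated GFP-low cells 7.42, 7.65 and 7.51, the lowest values. E18 cells had 9.11, 9.31, 9.13 and 9.28, between the 2 GFP-high groups and gated GFP-low cells. Its called steps were from E18 to gated GFP-low cells (0.59 ± 0.19, adjusted p = 0.0456) and from there to ungated GFP-low cells (1.09 ± 0.21, adjusted p = 0.00166).

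Hopx encodes a small homeodomain protein without DNA binding that marks outer radial glia in primates. It ranged from 7.62 to 7.96 in gated GFP-high, 7.10 to 7.62 in gated GFP-low, 7.80 to 8.70 in ungated GFP-high, 6.77 to 8.11 in ungated GFP-low and 7.32 to 8.06 in E18 cells. All its neighbouring groups overlapped. Over the 10 genes, 11 of 40 steps between neighbouring groups were called, where 1.56% to 30.6% of all genes were called between the same pairs of groups.

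The first question was whether GFP-high and GFP-low cells differ in these genes at E14. Without the Prominin gate they did so strongly: 8 of 10 genes were higher in GFP-high cells, all but Gfap and Hopx, against 15.8% of all 18193 genes called in either direction and 7.61% called higher. With the gate, the same contrast gave 2 genes, Prom1 and Mfge8, against 1.68% of all genes called in either direction and 0.478% called higher. All 10 fold changes were above 0 in both, with a median of 2.22 without the gate and 0.44 with it, where the median of all genes was −0.01 in each. Groups did not overlap for 9 genes without the gate (34.3% of all genes) and for 6 with it (13.2%).

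In ungated cells, Nes was 2.84 ± 0.62 higher in GFP-high cells on the log2 scale (7.14-fold, limma adjusted p = 0.0218). Its difference was 2.13 without GFP-low replicate 2, 1.72 with the mean of its probe sets and 0.91 ± 0.21 at probe set 1418289_at. Ednrb was 2.75 ± 0.23 higher (6.71-fold, adjusted p = 0.000742). The carriers Dbi and Fabp7 were 2.46 ± 0.30 (adjusted p = 0.0022) and 1.89 ± 0.22 (adjusted p = 0.00186) higher. Vim was 2.29 ± 0.22, Mfge8 2.28 ± 0.23 and Prom1 2.15 ± 0.20 higher, with adjusted p of 0.00105, 0.00119 and 0.000918. Slc1a3 rose by 1.49 ± 0.35 (adjusted p = 0.0296). Hopx (1.06, 95% interval 0.09 to 2.04, adjusted p = 0.141) and Gfap (0.77, 0.07 to 1.47, adjusted p = 0.139) did not pass the threshold. The Hopx call was gained without GFP-low replicate 2 (1.49, adjusted p = 0.0289), the one GFP-low array with a high value. The calls of Slc1a3 and Nes were each lost without GFP-high replicate 1 or 2 or GFP-low replicate 1, that of Slc1a3 also without GFP-low replicate 2 and that of Nes without GFP-high replicate 3 (adjusted p up to 0.101 and 0.0764), and with the labelling kit as a term, which here is the fit without GFP-high replicate 1 (0.0891 and 0.0688).

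In gated cells, Mfge8 was 0.96 ± 0.18 higher in GFP-high cells (1.95-fold, adjusted p = 0.0264) and Prom1 0.74 ± 0.14 (1.67-fold, adjusted p = 0.0309). Ednrb (0.78, 95% interval 0.35 to 1.20, adjusted p = 0.0719), Vim (0.77, 0.29 to 1.25, adjusted p = 0.123) and Dbi (0.49, 0.14 to 0.84, adjusted p = 0.187) came next. Fabp7, Hopx, Slc1a3, Gfap and Nes differed by 0.29 to 0.40 with intervals that include 0. The Prom1 call was kept in 1 of 7 fits that left out an array, without GFP-high replicate 2, and its adjusted p ranged from 0.0382 to 0.0973. The Mfge8 call was lost without GFP-low replicate 1 or 2 or GFP-high replicate 1 or 3, with adjusted p from 0.03 to 0.0898 over the 7 fits.

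**Figure D2:**
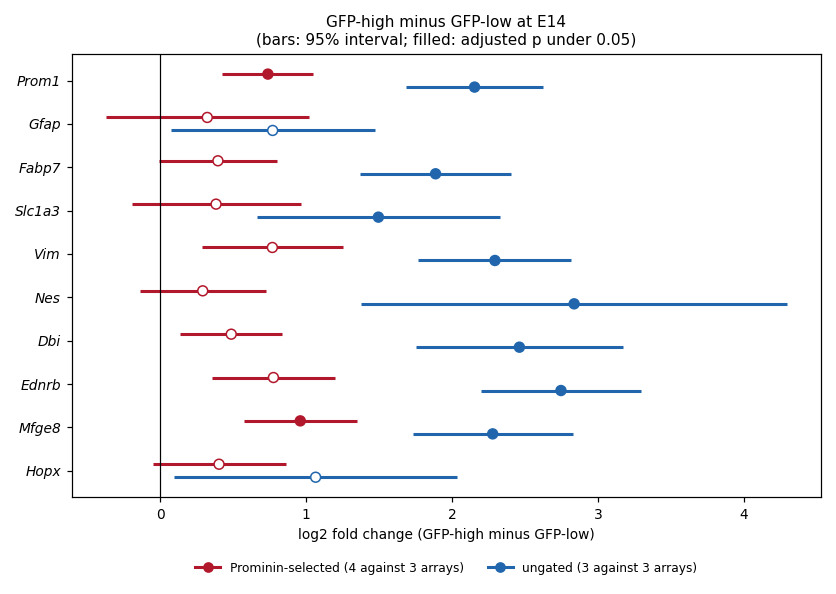
The log2 fold change of GFP-high minus GFP-low cells at E14 for each gene, among gated (red) and ungated (blue) cells, with 95% intervals and filled points where the adjusted p is under 0.05. All points lie right of 0, and the ungated ones lie further out for every gene.

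The difference between the 2 GFP contrasts was tested in its own right on all 17 arrays. It was below 0 for all 10 genes and passed the threshold for 7, all lower with the gate, against 7.7% of all genes in either direction and 3.83% lower. Dbi and Ednrb differed by −1.97 ± 0.31 and −1.97 ± 0.30, with adjusted p of 0.000966 and 0.000766. Nes differed by −2.54 ± 0.59 (adjusted p = 0.013), a size that moved to −1.84 without ungated GFP-low replicate 2 and to −1.52 with the mean of its probe sets. Its call was lost with a pseudocount of 1 (adjusted p = 0.0599), and its other probe sets, 1418289_at (−0.72) and 1453997_a_at (−1.30), were not called. Vim, Fabp7, Prom1 and Mfge8 differed by −1.53, −1.49, −1.42 and −1.32, with adjusted p of 0.00691, 0.00316, 0.000966 and 0.00758. Slc1a3 (−1.11, 95% interval −2.06 to −0.17, adjusted p = 0.167), Hopx (−0.66, −1.59 to 0.26) and Gfap (−0.45, −1.44 to 0.55) did not pass. The neuron markers stand beside this: 12 genes of postmitotic neurons summed to 10282 to 11924 in gated GFP-high and 18070 to 20040 in gated GFP-low cells, but to 7285 to 8027 and 34397 to 50677 without the gate. Their difference between contrasts was called higher with the gate for 9 of 12. In the ungated contrast, 7 of 7 mitosis genes and 7 of 8 basal progenitor genes were higher in GFP-high cells, with medians of 2.78 and 1.92, and in the gated one 3 and 1. Genes of Cajal-Retzius neurons were lower in gated GFP-high cells for 7 of 8, where 1.68% of all genes were called in either direction. They summed to 668 to 851 in gated GFP-high cells, with 3 above the background reference, and to 3703 to 5248 in gated GFP-low cells. Without the gate 1 of the 8 was higher and 1 lower. The part of these markers in the members' differences was not tested.

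The second question was what the Prominin gate changes at a given GFP level. The called members were lower in one population and higher in the other. By limma, in GFP-high cells 0 members were higher (0 also at an unadjusted p under 0.05) and 3 lower with the gate, against 20.7% of all genes called in either direction and 8.98% lower. In GFP-low cells 5 were higher and 0 lower (0 also at an unadjusted p under 0.05), against 19.2% in either direction and 10.8% higher. Among the 5 is Prom1, whose protein the gate selects on, so that call is a check of the sort. Groups did not overlap for 4 members in GFP-high cells (30.6% of all genes) and for 6 in GFP-low cells (32.6%). The median member difference was −0.40 in GFP-high and 0.86 in GFP-low cells, where the medians of all genes were 0.02 in each. The difference between these 2 comparisons is the one tested above.

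Among GFP-high cells, Ednrb was 1.93 ± 0.21 lower with the gate (3.80-fold, adjusted p = 1.07e-05) and Fabp7 1.84 ± 0.19 lower (3.57-fold, adjusted p = 9.78e-06). Vim fell by 0.89 ± 0.22 (adjusted p = 0.00789), and this call was lost with the labelling kit as a term (−0.88, adjusted p = 0.113), while Ednrb and Fabp7 kept theirs (−2.03 and −2.07). That term rests on the 1 ungated array of the gated arrays' kit. Nes was lower by 1.05 with an interval of −1.91 to −0.19 (adjusted p = 0.0799). Prom1 itself, on whose protein the gate acts, differed by 0.14 (95% interval −0.18 to 0.47). Dbi (0.04, −0.41 to 0.50) and Mfge8 (−0.23, −0.64 to 0.18) were not called either. Beside these, 5 of 7 measured mitosis genes were lower with the gate, 7 of 12 neuron genes and 6 of 8 interneuron genes higher. The mitosis genes summed to 4158 to 5659 with the gate and to 10547 to 10799 without it. Their part in the members' differences was not tested.

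Among GFP-low cells, Dbi was 2.02 ± 0.23 higher with the gate (4.05-fold, adjusted p = 4.33e-05). With the mean of its probe sets Dbi differed by 1.38, and 1 of the 4, 1422432_at, by 0.07 ± 0.45. Prom1 was 1.56 ± 0.16 higher (2.94-fold, adjusted p = 2.37e-05). The gate selects on the protein of Prom1, so this value checks the sort. In GFP-high cells the same check gave 0.14 (95% interval −0.18 to 0.47). Nes (1.50 ± 0.43, adjusted p = 0.0231), Slc1a3 (1.10 ± 0.33, adjusted p = 0.026) and Mfge8 (1.09 ± 0.21, adjusted p = 0.00166) were higher as well. The Nes difference was 0.79 without ungated replicate 2 (adjusted p = 0.0923). The Nes call was also lost without gated replicate 2 or 3 (adjusted p = 0.0908 and 0.0575). The Slc1a3 call was lost without gated replicate 1 or 3 or ungated replicate 1 or 2 (adjusted p up to 0.105), and the mean over its 6 probe sets turned its sign (−0.18). Fabp7 (−0.35, 95% interval −0.78 to 0.09) and Ednrb (0.04, −0.42 to 0.51), which fell in GFP-high cells, were not called here. Vim, which fell there too, differed by 0.63 (0.13 to 1.13, adjusted p = 0.073). Neuron markers were lower with the gate for 8 of 12 genes. Markers of Cajal-Retzius neurons were higher for 7 of 8, with sums of 3703 to 5248 against 438 to 637, and their part in these differences was not tested.

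**Figure D3:**
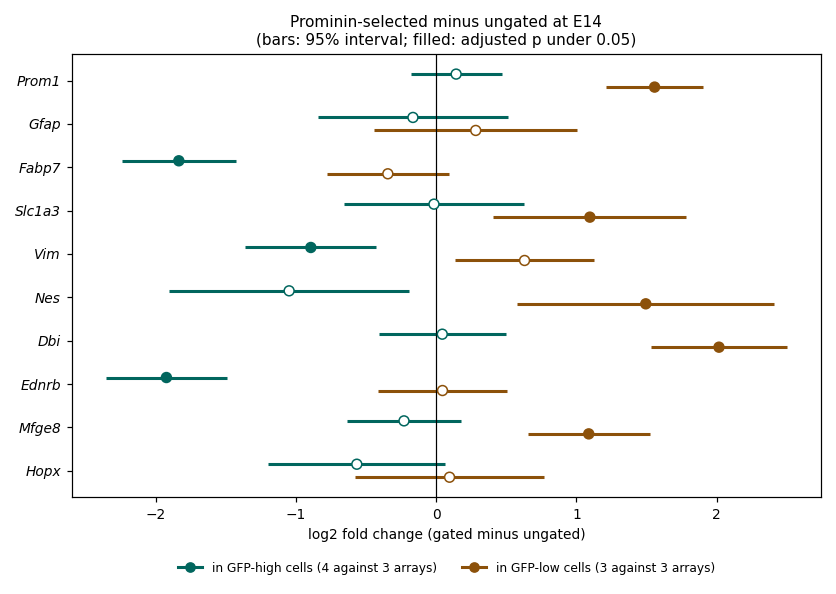
The log2 fold change of gated minus ungated cells at E14 for each gene, in GFP-high (green) and GFP-low (brown) cells, with 95% intervals and filled points where the adjusted p is under 0.05. Filled points in GFP-high cells (Fabp7, Vim, Ednrb) lie left of 0 and those in GFP-low cells (Prom1, Slc1a3, Nes, Dbi, Mfge8) right of it.

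The third question was how gated cells differ between E14 and E18. Here the set split. Against gated GFP-high cells, 2 members were higher at E18 and 4 lower, against 26.7% of all genes called in either direction, 10.2% higher and 16.5% lower. Prom1 fell by 2.09 ± 0.13 (4.26-fold lower, adjusted p = 8.62e-07), Vim by 1.76 ± 0.21 (adjusted p = 5.78e-05), Nes by 0.99 ± 0.18 (adjusted p = 0.00157) and Dbi by 0.93 ± 0.15 (adjusted p = 0.00058). Fabp7 rose by 1.35 ± 0.17 (2.55-fold, adjusted p = 0.000108) and Slc1a3 by 0.95 ± 0.25 (adjusted p = 0.0125). Mfge8 differed by −0.37 (95% interval −0.73 to −0.01, adjusted p = 0.125), Gfap by 0.35 (−0.29 to 0.99), Ednrb by −0.0017 (−0.39 to 0.39) and Hopx by −0.02 (−0.44 to 0.40). Groups did not overlap for 7 members (29.0% of all genes). All 6 calls were kept whichever of the 8 arrays was left out. The Slc1a3 call was lost when array medians were set equal (0.63, adjusted p = 0.0515), which moved the median of all genes to −0.24. Mfge8 gained a call in that setting (−0.72, adjusted p = 0.0132). The Slc1a3 call was also lost with the replicate number as a block (0.59, adjusted p = 0.0816). In the fit on all 17 arrays the Nes call was lost (adjusted p = 0.063). With the mean of each gene's probe sets, Nes and Dbi differed by −0.28 and −0.39 and were not called (adjusted p = 0.35 and 0.177).

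Against gated GFP-low cells, 4 members were higher at E18 (Fabp7, Slc1a3, Ednrb and Mfge8) and 3 lower (Prom1, Vim and Nes), against 17.4% of all genes called in either direction, 6.02% higher and 11.4% lower. Groups did not overlap for 8 members (28.8% of all genes). Fabp7 was 1.75 ± 0.19 higher (adjusted p = 9.26e-05), Slc1a3 1.33 ± 0.27 (adjusted p = 0.00494), Ednrb 0.77 ± 0.20 (adjusted p = 0.0167) and Mfge8 0.59 ± 0.18 (adjusted p = 0.0386). Prom1 fell by 1.35 ± 0.14 (adjusted p = 9.22e-05), Vim by 1.00 ± 0.22 (adjusted p = 0.00876) and Nes by 0.70 ± 0.20 (adjusted p = 0.0288). The Mfge8 call was lost without any one of the 4 E18 arrays or GFP-low replicate 1 or 2 (adjusted p up to 0.135). The Nes call was lost without E18 replicate 2, 4 or 5 or GFP-low replicate 2 or 3 (adjusted p up to 0.126), in the fit on all 17 arrays (adjusted p = 0.281) and with the mean of its probe sets (−0.08, adjusted p = 0.853). The Ednrb call was lost without GFP-low replicate 2 (adjusted p = 0.078). Both comparisons share the 4 E18 arrays, so their values are set side by side and are not independent.

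Markers of other cells moved with age as well. Against gated GFP-high cells, 10 of 12 neuron genes and 6 of 8 interneuron genes were higher at E18, and 7 of 7 mitosis genes lower. The 6 oligodendrocyte lineage genes split into 3 higher, 1 lower and 2 not called. Of 8 basal progenitor genes 7 were lower, with sums of 3593 to 4431 at E18 and 12714 to 15096 in gated GFP-high cells, and of 10 genes of maturing astroglia 5 were higher and 1 lower. The interneuron genes summed to 2974 to 3356 at E18 and to 326 to 662 in gated GFP-high cells, the oligodendrocyte lineage genes to 1635 to 2750 and 218 to 295. Against gated GFP-low cells, 6 of 8 Cajal-Retzius, 6 of 8 basal progenitor and 4 of 7 mitosis genes were lower at E18. There 6 of 8 interneuron genes were higher, and of 12 neuron genes 4 were higher and 2 lower. The Cajal-Retzius genes summed to 912 to 1620 at E18 and to 3703 to 5248 in gated GFP-low cells. The 18S control was also lower on every E18 array (714 to 2673) than on every gated E14 array (3152 to 6896). The part of these cells and of this control in the members' differences was not tested. Of 8 endothelial markers, Pecam1, Cdh5, Kdr, Flt1, Tek and Tie1 were at or under the background reference in every group. Esam was above it in every group, and Cldn5 in ungated GFP-high and E18 cells. By limma, 0 of the 8 were called in each comparison.

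**Figure D4:**
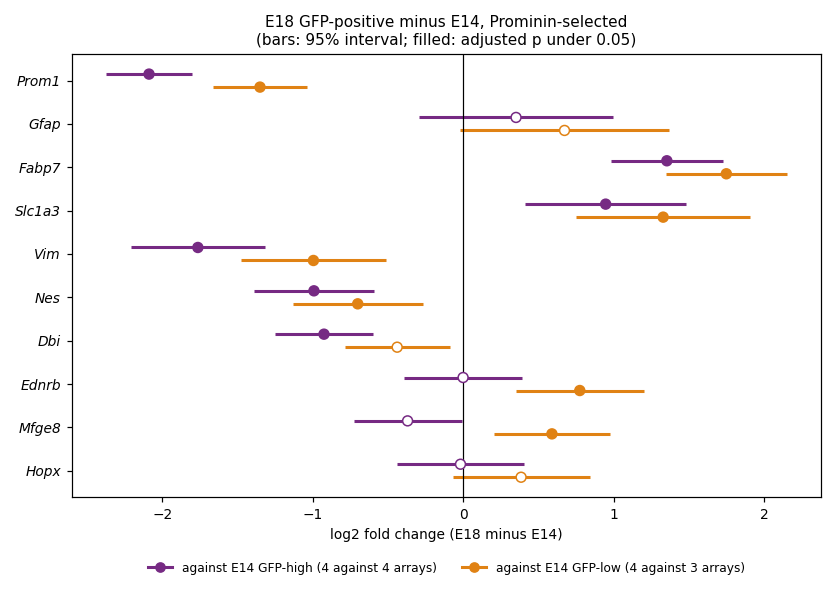
The log2 fold change of E18 minus E14 gated cells for each gene, against GFP-high (purple) and GFP-low (orange) cells, with 95% intervals and filled points where the adjusted p is under 0.05. Prom1, Vim and Nes lie left of 0 against both groups and Fabp7 and Slc1a3 right of it.

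Several members have more than 1 probe set, and these did not always agree. Of the 27 probe sets, 1 was called in the gated GFP contrast (0.592% of all 34945 probe sets) and 20 in the ungated one (11.7%). In the E18 comparisons 5 were higher and 7 lower against GFP-high cells (23.3% of all called), and 10 higher and 5 lower against GFP-low cells (16.2%). Between gated and ungated cells 0 were higher and 12 lower in GFP-high cells (21.7% of all called in either direction). In GFP-low cells 9 were higher and 2 lower (19.6% in either direction).

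The 3 Vim probe sets had the same sign in every comparison, for example −1.19 to −1.76 at E18 against GFP-high cells. Their sizes differed in the gated GFP contrast, where none of the 3 was called. There 1450641_at, the one used for the gene, gave 0.77 ± 0.23, with no overlap between groups. The others, 1456292_a_at and 1438118_x_at, gave 0.40 ± 0.20 and 0.32 ± 0.21, with overlap and intervals that include 0. For Ednrb, 2 of the 3 probe sets gave −1.91 and −1.93 between gated and ungated GFP-high cells, where 1423594_a_at gave −0.32 ± 0.26.

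Slc1a3 was the member whose probe sets disagreed most. In GFP-high cells, 4 of its 6 probe sets were called lower with the gate, with 1426340_at at −2.01 ± 0.31 and 1452031_at at −1.31 ± 0.22, while 1443749_x_at, the brightest, was at −0.02 ± 0.31. The other 2 called lower, 1426341_at and 1440491_at, lay under the background reference in gated cells, so their differences have no exact size. In GFP-low cells 1426340_at was called lower (−1.17 ± 0.33), as was 1426341_at, again under the reference with the gate, and 1443749_x_at higher (1.10 ± 0.33). At E18 against GFP-high cells all 6 were above 0, with 4 called. There 1426341_at lay under the reference in GFP-high cells. The called 1440491_at lay under it in both groups (5.51 and 4.81), so its sign carries little. The other probe sets thus shared their sign at E18, and they did not share the sign of the difference with the gate. Where each probe set lies along the transcript is not given in the sources used here, and the 3′ and 5′ control signals also differed between gated and ungated arrays.

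Other members had disagreements as well. For Dbi, 1422432_at was called lower with the gate in GFP-high cells (−1.39 ± 0.42) where the other 3 probe sets lay between −0.24 and 0.04, and it was the one not called in GFP-low cells. At E18 against GFP-high cells 1433991_x_at and 1455976_x_at were called lower (−1.09 ± 0.15 and −0.93 ± 0.15). There 1422432_at and 1438093_x_at differed by 0.16 ± 0.42 and 0.29 ± 0.29. Against GFP-low cells no Dbi probe set was called, with 1422432_at at 1.23 ± 0.45 and 1433991_x_at at −0.48 ± 0.17. For Nes, 1449022_at was called lower at E18 against GFP-high cells (−0.99 ± 0.19), while 1418289_at differed by −0.08 ± 0.25 and 1453997_a_at, above the background reference in 1 group, by 0.24 ± 0.37. For Hopx, the dimmer probe set 1451776_s_at was called where 1428662_a_at was not: 1.45 ± 0.26 higher in ungated GFP-high cells and 0.96 ± 0.24 lower with the gate in GFP-high cells. It was also called higher at E18 against GFP-low cells, where it lay under the background reference in the latter. The statement on Hopx therefore depends on the probe set.

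**Figure D5:**
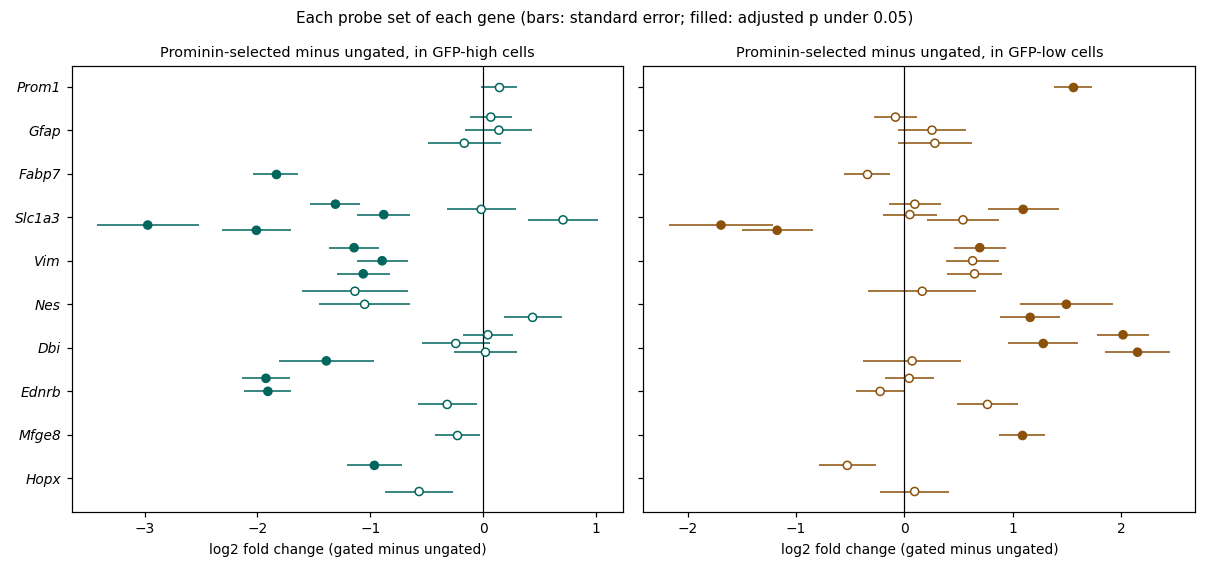
The log2 fold change of gated minus ungated cells for each of the 27 probe sets, by gene, in GFP-high (left) and GFP-low (right) cells, with standard errors and filled points where the adjusted p is under 0.05. The 6 Slc1a3 probe sets lie on both sides of 0 on the left and include filled points on both sides on the right, and points of probe sets under the background reference in a group have no exact size.

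A list of 23 other radial glia genes, among them transcription factors and Notch pathway genes, was set beside the members. In ungated cells 19 of 23 were higher in GFP-high cells and 0 lower (median 2.32), with Nr2e1 at 3.09 ± 0.22 and Pax6 at 3.07 ± 0.30. In gated cells 5 were higher and 0 lower (median 0.72): the receptor Notch1 (1.00), the transcription factors Nr2e1 (0.93), Sox9 (0.90) and Pax6 (0.85), and Phgdh (0.88), an enzyme of serine synthesis. At E18 against GFP-high cells 14 were lower and 4 higher (median −1.36). The higher ones were the matrix gene Tnc (3.01 ± 0.21), the receptor phosphatase Ptprz1 (2.15 ± 0.16), its ligand Ptn (1.70 ± 0.22) and the cadherin Cdh2 (1.33 ± 0.23). With the gate 15 were lower and 0 higher in GFP-high cells (median −1.02), and 9 higher and 3 lower in GFP-low cells (median 0.66). The medians of all genes in these comparisons lay between −0.07 and 0.02. Of all genes, 7.61% were called higher in the ungated and 0.478% in the gated GFP contrast. At E18 against GFP-high cells 16.5% were called lower and 10.2% higher. With the gate 8.98% were called lower in GFP-high cells, and 19.2% in either direction in GFP-low cells.

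Relatives of the members were counted by family. Beside these counts, 15.8% of all genes were called in the ungated GFP contrast and 26.7% at E18 against GFP-high cells, in either direction. Of 11 other intermediate filament genes, 0 were higher and 3 lower in ungated GFP-high cells, all of them filament genes of neurons: Ina (−4.82 ± 0.34), Nefm (−2.84 ± 0.24) and Nefl. Nefl lay under the background reference in GFP-high cells, so its difference has no exact size, as for every gene named without one in the rest of these families. Of 6 other fatty acid binding proteins, Fabp3 and Fabp5 were lower in ungated GFP-high cells (−2.39 ± 0.26 and −0.74 ± 0.19) where Fabp7 was higher. Fabp3 was higher at E18 against GFP-high cells (2.23 ± 0.17), as Fabp7 was. Of 6 other Slc1 transporters, Slc1a1 and Slc1a2 were lower in ungated GFP-high cells, where both lay under the reference, and Slc1a5 was higher, under the reference in GFP-low cells. At E18 against GFP-high cells Slc1a1 (2.17 ± 0.26), Slc1a2 (1.06 ± 0.36) and Slc1a4 (0.69 ± 0.17) were higher and Slc1a5 lower, under the reference at E18.

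Of 5 measured genes of the endothelin system, which holds the ligands and processing enzymes upstream of Ednrb, 0 were called by limma in the gated and ungated GFP contrasts. Of all genes, 1.68% and 15.8% were called there. Ece2, an endothelin-converting enzyme, was called in both comparisons of age (26.7% and 17.4% of all genes) and both of the gate (20.7% and 19.2%). It was 0.86 ± 0.16 and 1.18 ± 0.17 higher with the gate in GFP-high and GFP-low cells and 1.12 ± 0.16 lower at E18 against GFP-high cells. Of the integrins and relatives linked to Mfge8, the subunits Itgb8 (2.53 ± 0.25) and Itgav (1.72 ± 0.20) were higher in ungated GFP-high cells and Edil3, a secreted relative of Mfge8, lower (−2.41 ± 0.16). Flot1 and Flot2, proteins of cholesterol-rich membrane, were higher with the gate in GFP-high cells (0.78 ± 0.24 and 0.93 ± 0.18), and Prom2 and Cav1 were not called in any comparison. Of 5 acyl-CoA binding genes and Dbi partners, Acbd4 was lower in ungated GFP-high cells, under the reference there. Of 8 genes that mark outer radial glia in other species, 4 were higher in ungated GFP-high cells, against 7.61% of all genes. These were Moxd1, Fam107a, Stat3 (0.81 ± 0.18) and Il6st (1.40 ± 0.37). Moxd1 lay under the reference in both groups and Fam107a in GFP-low cells. Fam107a was lower at E18 against GFP-high cells, under the reference at E18.

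The pattern of each member over the 17 arrays was also compared with that of other genes, as a description. The points share groups, arrays and labelling, so the values mostly follow the group means. The search took the 10156 other genes whose highest group mean passed the median level (10157 for Gfap). Prom1 was most like Cdc20 (Pearson's r = 0.991), Ccnb2 and Eomes (0.984), genes of mitosis and of basal progenitors. Vim was most like Elavl1 (0.983), Dbi like Phgdh (0.979), Fabp7 like Ptx3 (0.970), Ednrb like Tmpo (0.958), Nes like Tk1 (0.954) and Mfge8 like Cdk6 (0.952). Slc1a3 was most like Pkp4 (0.946), Hopx like Ppil1 (0.823) and Gfap like Pcnp (0.795). Between members, r ran from −0.045 for Prom1 with Fabp7 to 0.882 for Prom1 with Vim. Prom1 and Fabp7 ordered the 5 groups differently, with E18 near the bottom for one and near the top for the other.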

How the data were processed

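Each of 17 arrays gave 1 linear intensity per probe set for 45101 probe sets, as deposited by the authors. For the summarisation software, nothing is given in the sources used here. The trimmed mean between the 2nd and 98th percentiles was 150 on every array. After 64 control probe sets were left out, values were transformed to log2(intensity + 16) and normalised by quantiles, since array medians differed by 0.603. Genes took the probe set with the highest mean. Symbols came from GEO's platform annotation, with 932 probe sets of several symbols and 9160 of no listed gene left out.

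Contrasts were tested with limma 3.58.1 in R 4.3.3 (lmFit and eBayes, two-sided), at a Benjamini-Hochberg adjusted p under 0.05 over all genes. Contrasts among gated groups used the 11 gated arrays, the ungated GFP contrast 6 arrays and the others all 17. The probe sets were tested in a second fit. The procedure was tested on simulated data. Figures used matplotlib 3.10.9 in Python 3.11.15. Members, lists and tests were chosen with earlier results of these data known. All 10 members are named, with up to 4 genes called per related list and the 3 most similar genes per member. Same-numbered arrays were not paired, since no label says that they belong together. In 27 pairs their deviations correlated at −0.144 to 0.040, which cannot tell whether they share litters or sort days.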

Additional observations from a re-analysis of the deposited data

Results flagged for a closer look

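In gated GFP-high cells, 1 of 4 arrays stood apart for Slc1a3: replicate 1 was at 7.68 and the next array at 8.42, with the highest at 8.55. The gap was 0.846 of the group's range. Of 20 groups of 4 arrays tested among the members this was the one that passed, and chance alone marks about 1 group in 20.

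The GFP contrast differed between gated and ungated cells for 7 of 10 members, by a test of the difference itself on all 17 arrays (limma). With the gate it was smaller by these log2 differences: −1.42 for Prom1, −1.49 for Fabp7, −1.53 for Vim, −2.54 for Nes, −1.97 for Dbi, −1.97 for Ednrb and −1.32 for Mfge8. The gate goes with a difference in labelling kit and in 3′ and 5′ control signals, whose part was not tested. The fit with the kit as a term, which here is the fit without ungated GFP-high replicate 1, kept all 7 calls. All ungated arrays left in it have the other kit, so it cannot tell the kit and the gate apart.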

How the results depend on the processing

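In the gated GFP contrast, against 2 members called, 0 were called with a pseudocount of 1, 0 with only the groups of the contrast in the fit and 1 with array medians set equal. Against 1 probe set called, 0 were called with a pseudocount of 1, 3 with a pseudocount of 64 and 0 with array medians set equal. Over all genes, 305 were called, and 74, 554, 107, 510, 143 and 58 with a pseudocount of 1, a pseudocount of 64, array medians set equal, the dimmest 40% left out, the mean of probe sets and only the groups of the contrast. Taking the mean of all probe sets of a gene gave 5 members in place of 3 between gated and ungated GFP-high cells. Only the groups of the contrast in the fit gave 3 in place of 5 members in GFP-low cells, and 1518 in place of 3496 genes. The kit as a term gave 1841 in place of 2869 genes in the ungated GFP contrast and 1688 in place of 3774 between gated and ungated GFP-high cells. Array medians set equal moved the median of all genes to −0.24 and −0.23 in the E18 comparisons.

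A further fit took the replicate number as a block and held only the groups of the contrast. It left less to estimate the spread from than the main fit, and the part of this in lost calls was not tested. With this block, 0 members and 0 probe sets were called in the gated GFP contrast. At E18 against GFP-low cells 0 and 0 were called, against 7 and 15 in the main fit. Between gated and ungated GFP-low cells 0 members and 4 probe sets were called, against 5 and 11. Over all genes the block gave 0, 1867, 3114, 0, 1466, 42 and 788 calls, against 305, 2869, 4850, 3166, 3774, 3496 and 1400, in the gated and ungated GFP contrasts, the E18 comparisons with GFP-high and GFP-low cells, the gate in GFP-high and GFP-low cells and the difference of GFP contrasts. No label says whether same-numbered arrays share litters or sort days, so the block is no test of pairing.

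Of the called values, 1 changed sign: Slc1a3 by gate in GFP-low cells, at −0.18 with the mean of probe sets. The others that turned were uncalled, the largest of them Dbi at E18 against GFP-low cells (−0.44), Hopx in the same comparison (0.38) and Gfap in the gated GFP contrast (0.32). With the mean of probe sets these were Gfap in the gated GFP contrast (−0.047) and the gate in GFP-high cells (0.0143), Ednrb (0.0536) and Hopx (0.13) at E18 against GFP-high cells, Dbi at E18 against GFP-low cells (0.16), and Dbi (−0.39) and Hopx (−0.22) by gate in GFP-high and GFP-low cells. With values as deposited, Ednrb (0.0503) and Hopx (0.046) turned at E18 against GFP-high cells and Dbi by gate in GFP-high cells (−0.14). With array medians set equal, Dbi turned in GFP-high cells (−0.21) and Ednrb (−0.0789) and Hopx (−0.0332) in GFP-low cells. The block turned Hopx at E18 against GFP-low cells (−0.0604) and Dbi by gate in GFP-high cells (−0.004), array weights Slc1a3 there (0.16) and the kit term Gfap there (0.21). The cause was not tested.

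With each array left out in turn, the members called ranged from 0 to 2 in the gated and 6 to 8 in the ungated GFP contrast, were 6 in every fit at E18 against GFP-high cells and ranged from 4 to 7 against GFP-low cells. They were 3 in every fit for the gate in GFP-high cells, 3 to 6 in GFP-low cells and 7 to 8 for the difference of GFP contrasts. Probe sets ranged from 0 to 1, 16 to 20, 10 to 12, 9 to 13, 10 to 12, 6 to 13 and 12 to 14 in the same order, and called neighbours in the order of levels from 9 to 13 against 11 of 40. Over all genes the gated GFP contrast gave 76 to 228. Turned signs were uncalled: in Gfap (−0.0469 to 0.74 in the gated GFP contrast, −0.36 to 0.0028 and −0.14 to 0.65 for the gate in GFP-high and GFP-low cells), Ednrb (−0.12 to 0.11 at E18 against GFP-high cells, −0.15 to 0.23 for the gate in GFP-low cells), Hopx (−0.13 to 0.12 and −0.15 to 0.52 in the same comparisons), Dbi (−0.004 to 0.0848) and Slc1a3 (−0.26 to 0.22) for the gate in GFP-high cells. Dim probe sets such as those of Gfap have only a bound. The number of arrays limits every call.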
